A study of Homo sapiens with 14 samples.

Results

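WDR5 and the COMPASS subunits described here are 10 genes, chosen by symbol in both count tables: the core subunits WDR5, RBBP5, ASH2L and DPY30, the catalytic subunits KMT2A, KMT2C, KMT2D, SETD1A and SETD1B, and MEN1. They are 10 of 17810 genes in the table of engineered CHP-134 cells and 10 of 19143 genes in the table of parental CHP-134 cells. A filter on low counts passed 9 of them in the engineered cells, where KMT2A did not pass, and 10 in the parental cells.

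COMPASS complexes place methyl groups on lysine 4 of histone H3, a mark of active promoters and enhancers. Each complex joins a single catalytic subunit of the KMT2 or SETD1 family to a shared core of WDR5, RBBP5, ASH2L and DPY30, and the core is needed for full activity. WDR5 also works outside COMPASS, and MYC proteins, including N-MYC, bind it directly through its WBM site, whereas the catalytic subunits and PDPK1 use its WIN site.

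RNA-seq was performed on 14 libraries of CHP-134, a human neuroblastoma line with MYCN amplification. In the first experiment, cells transduced with lentivirus to express EGFP or OmoMYC through the Tet-On system were kept in Tet-approved serum and all received 1 µg/ml doxycycline for 3 days, with 3 biological replicates of each. OmoMYC is a mutant MYC dimerization domain that competes with MYC proteins, and EGFP is the induction control, so this comparison asks how inhibition of N-MYC changes expression. In the second, parental cells in normal serum received 500 nM dTAG47 or DMSO for 18 hours, with 4 biological replicates of each. dTAG47 degrades proteins that carry an engineered FKBP12 tag, and this arm was the authors' control for its effects in cells without the tag. EGFP and OmoMYC are separate transduced and drug-selected lines, so a difference between lines and the effect of the induced protein cannot be told apart.

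Libraries held 28060817 to 38358128 counts in the engineered cells and 40861430 to 53451641 in the parental cells. MYC, which shares sequence with the OmoMYC transgene, had 16 to 20 counts in the EGFP libraries and at least 15040 in the OmoMYC libraries, as the labels say. The adrenergic neuroblastoma genes PHOX2A, HAND2, GATA3, ISL1 and CHGB were present in both tables, whereas the defining catecholamine enzymes TH and DBH stayed at or below 1.41 CPM (a count divided by the scaled size of its library) in every library. Of 10 markers of other cell types, PRRX1 was the highest at 3.11 to 13.5 CPM, and the others stayed at or below 1.64 CPM. Sizes were scaled by TMM factors, which set the libraries of 1 table on a common scale. The tables differ in serum, depth and gene list, so levels were not tested between them.

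Upon OmoMYC induction, the catalytic subunits KMT2D, SETD1A and SETD1B and the cofactor MEN1 were higher than in EGFP cells, and the core subunit DPY30 was lower. WDR5 itself, RBBP5, ASH2L and KMT2C did not pass the test. Thus 4 of the 9 tested members were higher and 1 was lower by edgeR's quasi-likelihood test at an adjusted p of 0.05 (Benjamini-Hochberg over all genes). Among all 13803 genes tested, 53.0% were called, with 27.3% higher and 25.7% lower, so the members' share of 55.6% is close to that of all genes. In dTAG47-treated parental cells no member was called.

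**Figure D1:**
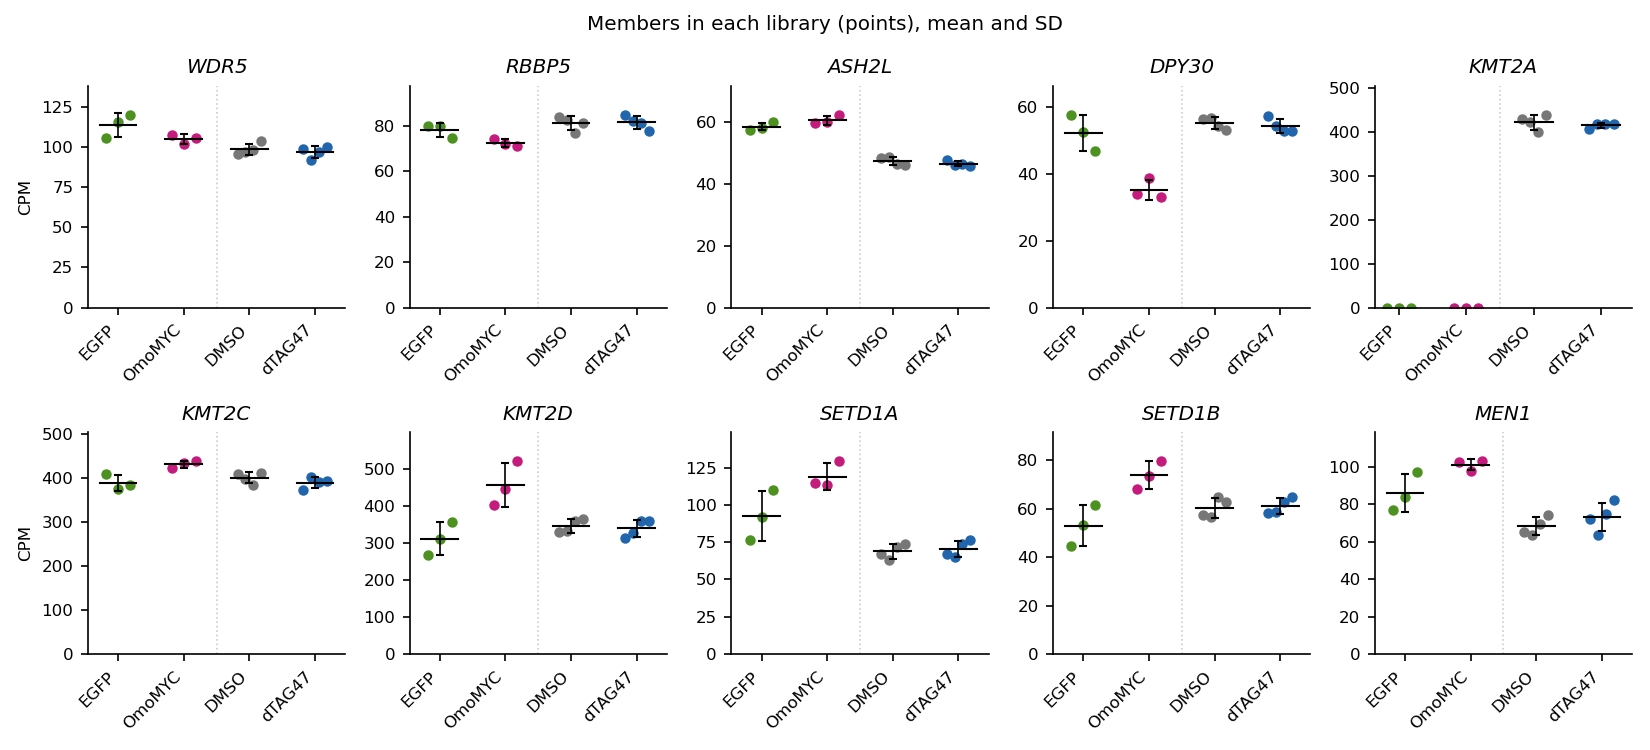
CPM (linear axes from 0) of the 10 members in each library (points), with the mean (long bar) and SD (capped bar) of each group of 3 or 4 libraries; the dotted line separates the 2 tables. DPY30 lies at 33.0 to 38.6 CPM in OmoMYC and 46.8 to 57.5 CPM in EGFP libraries, and KMT2A is listed at or near 0 in the engineered cells only.

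Among core subunits, the values of WDR5, the WD40 protein that bridges the catalytic subunit and the rest of the core, were 106, 116 and 120 CPM in EGFP replicates 1 to 3 and 108, 102 and 105 CPM in OmoMYC replicates 1 to 3. EGFP replicate 1 lies inside the OmoMYC range, so the groups overlap. The log2 fold change was -0.12 (SE 0.07, 95% interval -0.28 to 0.04, adjusted p = 0.192). This result leans on that library: without EGFP replicate 1, WDR5 was called lower, with a log2 fold change of -0.18 (adjusted p = 0.0129). WDR5 lies on the plus strand of chromosome 9, at 137000487 to 137025090 in GRCh37, the sequence of hg19.

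RBBP5, which binds WDR5 and ASH2L, was at 80.2, 80.1 and 74.7 CPM in EGFP libraries and at 74.4, 72.1 and 71.3 CPM in OmoMYC libraries. The groups just fail to overlap, yet the log2 fold change of -0.11 (SE 0.07) did not pass (adjusted p = 0.200). ASH2L, the subunit that stimulates the catalytic domain together with RBBP5, was at 57.5, 58.1 and 59.9 CPM in EGFP libraries and at 59.5, 59.9 and 62.3 CPM in OmoMYC libraries, so that the ranges overlap. Its log2 fold change was 0.05 (SE 0.07, adjusted p = 0.555).

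DPY30, a small subunit that docks on ASH2L, was the member that fell. It was at 57.5, 52.4 and 46.8 CPM in the EGFP libraries and at 34.0, 38.6 and 33.0 CPM in the OmoMYC libraries, with every OmoMYC value below every EGFP value. The log2 fold change was -0.57 (SE 0.10, 95% interval -0.78 to -0.35, adjusted p = 0.000773), a level 0.674 times that in EGFP cells. DPY30 lies on the minus strand of chromosome 2, at 32092878 to 32264874. In bulk RNA, fewer cells that express a gene and less RNA per cell cannot be told apart, here and for the other members.

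Among catalytic subunits, KMT2D, the enhancer methyltransferase also known as MLL4, had the largest change. Its values were 267, 311 and 355 CPM in EGFP libraries and 403, 444 and 519 CPM in OmoMYC libraries. The ranges are separate, although the EGFP libraries alone span 267 to 355 CPM. The log2 fold change was 0.55 (SE 0.11, 95% interval 0.30 to 0.80, adjusted p = 0.00236), or 1.46-fold. KMT2C, its paralog, was at 409, 375 and 384 CPM in EGFP libraries and at 423, 434 and 438 CPM in OmoMYC libraries. The KMT2C groups do not overlap, but the log2 fold change of 0.15 (SE 0.06) just missed the threshold (adjusted p = 0.0607). KMT2C was called higher without EGFP replicate 1 (0.17, adjusted p = 0.0106), with library size as the only scaling (0.16, adjusted p = 0.0399) and with at least 10 counts required in every library (0.16, adjusted p = 0.0473). KMT2C shares near-identical exons with copies elsewhere in the genome, so its count is less certain than those of the others.

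SETD1A and SETD1B are alternative catalytic subunits of the complexes responsible for most promoter H3K4 trimethylation. SETD1A was at 76.3, 91.8 and 110 CPM in EGFP libraries and at 115, 113 and 129 CPM in OmoMYC libraries (log2 fold change 0.36, SE 0.12, adjusted p = 0.0246). SETD1B was at 44.4, 53.1 and 61.3 CPM in EGFP libraries and at 67.9, 73.7 and 79.5 CPM in OmoMYC libraries (log2 fold change 0.48, SE 0.11, adjusted p = 0.00503). For both genes the groups are separate, by a narrow gap for SETD1A, and EGFP replicate 3 is the control nearest the OmoMYC libraries. SETD1A was no longer called when EGFP replicate 2 (adjusted p = 0.0884) or OmoMYC replicate 1, 2 or 3 (adjusted p = 0.0502, 0.0521 and 0.145) was left out. Without EGFP replicate 1 it kept its call at a smaller log2 fold change of 0.22.

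MEN1 encodes menin, which tethers the KMT2A and KMT2B complexes to chromatin. It was at 76.9, 83.6 and 97.1 CPM in EGFP libraries and at 103, 97.8 and 103 CPM in OmoMYC libraries. The gap between the groups is under 1 CPM. The log2 fold change was 0.23 (SE 0.09, adjusted p = 0.0454), and it lost its call whenever EGFP replicate 1 or 2 or any OmoMYC library was left out (adjusted p = 0.0807 to 0.184), with a log2 fold change of 0.14 without EGFP replicate 1. MEN1 was also not called with the scaling factors of DESeq2's RLE method (adjusted p = 0.0510).

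Counting non-overlap alone, 7 of the 9 tested members had separate EGFP and OmoMYC ranges (77.8%), namely RBBP5, DPY30, KMT2C, KMT2D, SETD1A, SETD1B and MEN1. The share among all tested genes was 62.3%.

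KMT2A, the founding MLL protein, could not be compared in the engineered cells. It was listed at 0 in 5 of the 6 libraries and had 2 counts in OmoMYC replicate 3. In parental cells it had 16352 to 22611 counts per library. Of 17227 genes shared by the tables, 86 had a mean under 0.05 CPM in the engineered table but over 20 CPM in the parental table, and 0 had the reverse. ACTG1 and TUBB, cytoskeletal genes that cells use widely, are among the 86, as is HCFC1, a COMPASS cofactor. An entry of 0 in this table is thus given as listed at 0, with no fold change, and the cause was not tested. Some nonzero entries of the lists below were also far under their parental level. In EGFP and DMSO libraries, KAT2A averaged 0.09 and 157 CPM, SUV39H1 1.97 and 15.4 CPM, and KANSL1 78.9 and 204 CPM. Others were close, such as WDR82 (151 and 157 CPM). Whether nonzero counts in the engineered table are complete was not tested.

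**Figure D2:**
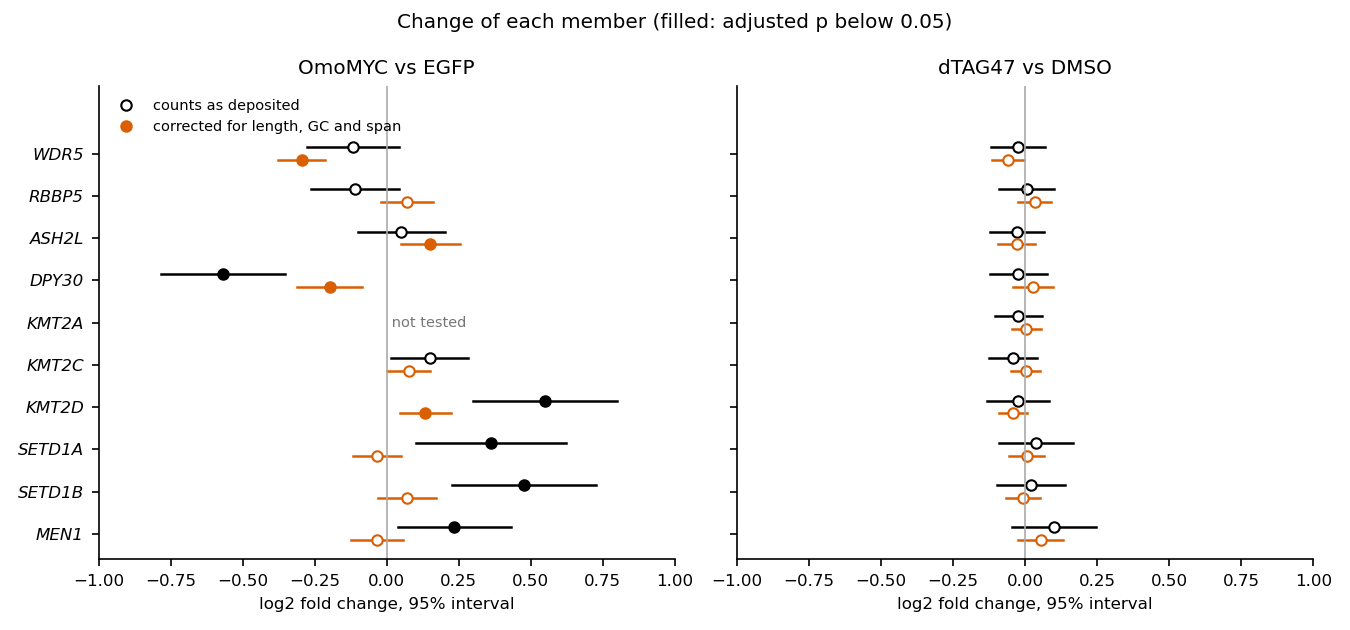
Log2 fold change of each member with its 95% interval, OmoMYC against EGFP (left) and dTAG47 against DMSO (right), from the counts as deposited (black) and after a correction for transcript length, GC content and gene span (orange). Filled points pass an adjusted p of 0.05; DPY30 and KMT2D are filled in both colours on the left, and no point is filled on the right.

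The members that rose and fell differ in base composition, and GC content moved with the comparison across the whole table. The longest transcripts of KMT2D, SETD1A, SETD1B and MEN1 are 59.7, 62.3, 61.4 and 58.8% GC, whereas that of DPY30 is 40.0%. Among all tested genes, the median log2 fold change was 0.35 in those above 60% GC and -0.29 in those at or below 40%. Of the former 50.3% were called higher and 4.92% lower, and of the latter 8.68% were called higher and 51.6% lower. The same tilt separated replicates. For each library, the deviation of log2 CPM from the gene's mean over the table was regressed on GC. Such a slope is relative to the other libraries of the table. Per 10 percentage points it was -0.28, -0.11 and -0.003 in the EGFP libraries and 0.11, 0.08 and 0.19 in the OmoMYC libraries. EGFP replicate 1, with the steepest negative slope, also had the lowest KMT2D, SETD1A, SETD1B and MEN1 and the highest DPY30.

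Within their GC classes, the members stood as follows. WDR5 (55.6% GC) was at -0.12 in a class (55 to 60%) whose median log2 fold change was 0.26 and whose lower quartile was -0.02. In that same class, KMT2D lay just above the upper quartile of 0.53 and MEN1 close to the median. SETD1A (0.36) and SETD1B (0.48) lay between the median of 0.35 and the upper quartile of 0.66 of the highest class. DPY30 lay below the lower quartile of -0.50 of the lowest class. RBBP5 (-0.11), ASH2L (0.05) and KMT2C (0.15) lay between the median and the upper quartile of their classes.

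When transcript length, GC content and gene span were corrected within each library, 2 of the 9 members were called higher and 2 lower. This correction sets the typical gene of each GC class to no change, and with it 58.5% of all genes were called, 30.7% higher and 27.8% lower. DPY30 remained lower (log2 fold change -0.20, SE 0.05, adjusted p = 0.00382) and KMT2D remained higher (0.13, SE 0.04, adjusted p = 0.0101), both by less than without it. SETD1A (-0.03), SETD1B (0.07) and MEN1 (-0.03) were no longer called. WDR5 was called lower (-0.29, SE 0.04, adjusted p = 1.98e-06) and ASH2L higher (0.15, SE 0.05, adjusted p = 0.0111). Both directions and calls therefore held for DPY30 and KMT2D, and the calls for SETD1A, SETD1B, MEN1, WDR5 and ASH2L depended on this step. The part of GC content in these differences was not tested.

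**Figure D3:**
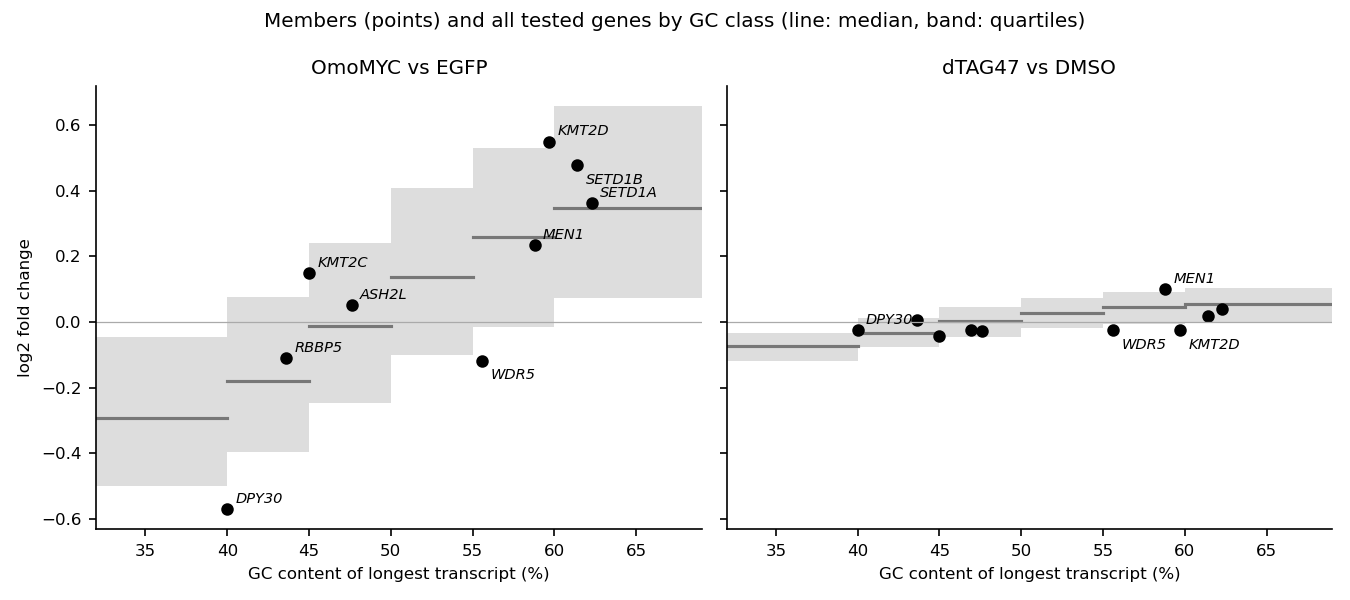
Log2 fold change of each member (points) against the GC content of its longest transcript in percent, for OmoMYC against EGFP (left) and dTAG47 against DMSO (right, 4 members named). Grey lines and bands give the median and quartiles of all tested genes in 6 GC classes. On the left the class medians run from -0.29 to 0.35, with WDR5 and DPY30 below their bands and KMT2D just above its own.

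CACGTG, the E-box hexamer that MYC-MAX dimers bind, was searched in the RefSeq promoters of the members (250 bases before to 50 after each start, GRCh38.p14). It reads the same on both strands. The table held 11 promoters for 7 members and no entry for ASH2L, DPY30 or SETD1B. The hexamer was in 2 of the 11, a promoter of WDR5 and the promoter of KMT2D, and in 7.26% of all 35116 promoters. Both are shown because WDR5 is the N-MYC partner and KMT2D the member that rose most: the E-box, in capitals, begins 136 bases before a start of WDR5 (chr9:134136248-134136327, plus strand, 1 of its 4 annotated starts) and 121 bases before that of KMT2D (chr12:49060873-49060952, minus strand).
WDR5: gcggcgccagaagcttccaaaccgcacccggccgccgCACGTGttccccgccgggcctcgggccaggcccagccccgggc
KMT2D: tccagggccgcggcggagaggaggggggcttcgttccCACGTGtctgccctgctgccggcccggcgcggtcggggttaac
The hexamer was thus found at a member that rose and at one whose call depended on the correction, and a match says nothing of binding in these cells.

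Levels of different genes can be compared only per length. Per kilobase of exon in the DMSO libraries, WDR5 was highest at 27.1 ± 0.977 CPM per kb (SD, n = 4), ahead of DPY30 (20.2 ± 0.620) and RBBP5 (18.5 ± 0.683), with separate ranges at each step. KMT2D (13.6 ± 0.715), KMT2A (13.4 ± 0.543) and MEN1 (13.4 ± 0.921) came next and overlapped. SETD1A (9.85 ± 0.682) and ASH2L (8.37 ± 0.228) were separate from their neighbours, and KMT2C (7.53 ± 0.233) and SETD1B (7.05 ± 0.475) overlapped at the bottom. The order was the same in dTAG47 libraries except that MEN1 (14.3 ± 1.49) stood ahead of KMT2D and KMT2A, again with overlap.

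The order depends on which length is used. Per kilobase of the longest transcript, DPY30 (36.3 ± 1.11 CPM per kb in DMSO, n = 4) stood above WDR5 (31.3 ± 1.12), and KMT2A (25.2 ± 1.02) and KMT2C (23.8 ± 0.737) moved up to follow them, because their annotated exons add up to more than their longest transcripts. In both, SETD1B was lowest and WDR5 and DPY30 were the highest pair.

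In engineered cells, per kilobase of exon, WDR5 led in EGFP (31.3 ± 2.04 CPM per kb, n = 3) and in OmoMYC (28.9 ± 0.800) libraries, with separate ranges from the next gene. DPY30 was next in EGFP cells (19.2 ± 1.97) but sixth of 9 in OmoMYC cells (12.9 ± 1.10), behind MEN1 (19.8 ± 0.559), KMT2D (17.9 ± 2.32), SETD1A (17.0 ± 1.28) and RBBP5 (16.5 ± 0.367). Of these, MEN1 and KMT2D overlapped, as did KMT2D and SETD1A and SETD1A and RBBP5. Per kilobase of the longest transcript WDR5 was again the highest, but its range overlapped that of DPY30 in EGFP cells (36.1 ± 2.34 and 34.4 ± 3.54) and that of MEN1 in OmoMYC cells, where DPY30 (23.2 ± 1.97) came after KMT2C (25.6 ± 0.480) and ahead of KMT2D, overlapping both.

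As a description, the summed mRNA level per kilobase of WDR5, RBBP5, ASH2L and DPY30 was divided by that of the catalytic members, which do not include KMT2B. Protein and the make-up of the complexes are not measured here. With KMT2A left out, the ratio was 2.29, 2.06 and 1.77 in the EGFP libraries and 1.44, 1.37 and 1.21 in the OmoMYC libraries. Every OmoMYC value lay below every EGFP value, and the log2 means differed by -0.60, with no test. In the parental libraries the ratio was 2.02, 2.08, 1.86 and 1.87 with DMSO and 2.13, 1.97, 1.85 and 1.81 with dTAG47. Those ranges overlapped, and the ratios with KMT2A included, 1.44 ± 0.0597 with DMSO and 1.44 ± 0.0894 with dTAG47 (SD, n = 4), lay closer together than their spread. The ratio is built from the same counts as the changes above and carries the same tilt with GC content.

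**Figure D4:**
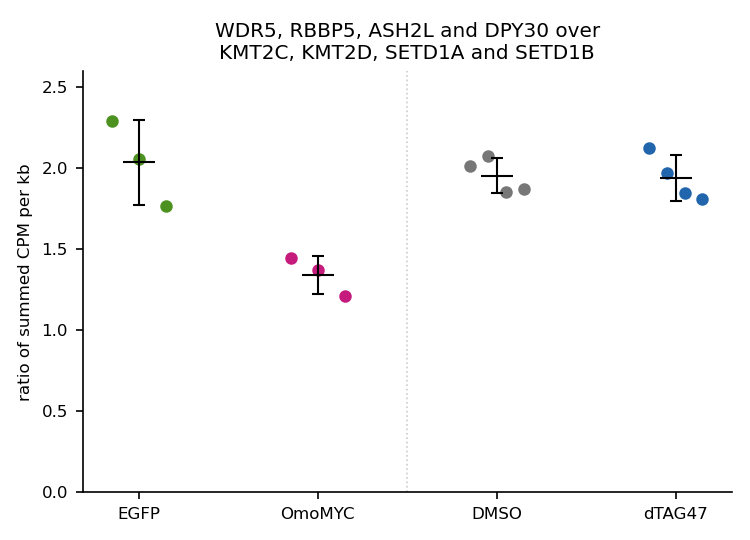
Ratio of summed CPM per kilobase of exon of 4 core subunits to that of KMT2C, KMT2D, SETD1A and SETD1B, in each library (points), with the mean and SD of each group on a linear axis from 0. OmoMYC libraries lie at 1.21 to 1.44 and EGFP libraries at 1.77 to 2.29, whereas DMSO and dTAG47 libraries overlap.

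In the parental cells, no member passed the test with dTAG47: 0 of 10 were called by edgeR, by DESeq2 or by limma-voom. In the edgeR fit, which held no term for replicate number, 0 had an unadjusted p under 0.05. Of all 14470 genes, 0.159% were called. Log2 fold changes ran from -0.04 for KMT2C to 0.10 for MEN1. The 10 intervals of this fit without a replicate term lay between -0.13 and 0.25, which leaves room for small changes. With a replicate block in edgeR, MEN1 was at 0.10 (interval 0.03 to 0.17, adjusted p = 0.0850). With a factor for replicates 1 and 2 against 3 and 4, MEN1 was at 0.10 (interval 0.02 to 0.18, adjusted p = 0.134). Both MEN1 intervals exclude 0, although neither adjusted p passed. The intervals of every other member included 0 in both fits. For 0 of the 10 members did the DMSO and dTAG47 ranges separate, against 3.34% of all genes.

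WDR5 was at 95.9, 96.7, 98.2 and 104 CPM in DMSO replicates 1 to 4 and at 98.6, 92.0, 97.0 and 100.2 CPM in dTAG47 replicates 1 to 4 (log2 fold change -0.03, 95% interval -0.12 to 0.07). DPY30, the member that fell with OmoMYC, was at 56.3, 56.7, 54.3 and 53.2 CPM with DMSO and at 57.2, 54.3, 52.8 and 52.6 CPM with dTAG47. Both pairs of ranges overlap, and for DPY30 almost fully. RBBP5 ran from 77.1 to 83.9 CPM with DMSO and from 77.7 to 85.0 CPM with dTAG47, and ASH2L from 46.2 to 48.5 and from 45.7 to 47.6 CPM.

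KMT2A was measured well here, at 430, 422, 399 and 439 CPM with DMSO and at 407, 418, 418 and 418 CPM with dTAG47. KMT2C ran from 385 to 412 CPM with DMSO and from 372 to 403 CPM with dTAG47. The dTAG47 libraries thus fell inside or near the range of the controls for both.

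KMT2D, SETD1A and SETD1B split by replicate number rather than by treatment. KMT2D was at 329, 330, 358 and 364 CPM with DMSO and at 313, 328, 359 and 359 CPM with dTAG47, SETD1A at 67.4, 62.8, 71.6 and 73.5 CPM and at 66.8, 65.2, 74.0 and 76.4 CPM, and SETD1B at 57.5, 56.4, 64.8 and 62.8 CPM and at 58.3, 58.5, 62.7 and 65.0 CPM. In these genes all 4 libraries of replicates 3 and 4 were above all 4 of replicates 1 and 2, by 0.15, 0.17 and 0.15 on the log2 scale. The labels name no batch.

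MEN1 showed the same split within each treatment, at 65.3, 63.6, 69.6 and 74.1 CPM with DMSO and at 71.8, 63.7, 74.7 and 82.2 CPM with dTAG47 (log2 fold change 0.10, SE 0.07, adjusted p = 0.705). At each replicate number its dTAG47 value was the higher, by little in replicate 2. RBBP5 and DPY30 split the other way, with replicates 3 and 4 lower by 0.07 and 0.08 on the log2 scale. GC slopes split alike: -0.08, -0.07, 0.03 and 0.03 with DMSO and -0.01, -0.06, 0.07 and 0.10 with dTAG47. Fitted within replicates 3 and 4 alone, MEN1 was called higher (0.12, SE 0.04, adjusted p = 0.0458), where 2.93% of all genes were called higher, and within replicates 1 and 2 it was not (0.08, SE 0.06, adjusted p = 0.811). Whether the pairs differ in their response was not tested.

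To place the members among related genes, 6 lists of other H3K4 and WDR5 genes were counted. For scale, 27.3% of all tested genes were higher in OmoMYC cells and 25.7% lower. Of the other COMPASS subunits, 10 of 12 were tested, with 2 higher and 3 lower in OmoMYC cells. CXXC1, the CpG-binding subunit of SETD1 complexes, rose (log2 fold change 0.35, SE 0.10), as did NCOA6 of the KMT2C and KMT2D complexes (0.26, SE 0.07). PAXIP1, also of the KMT2C and KMT2D complexes, fell (-0.32, SE 0.07), as did the chromatin tether PSIP1 (-0.27, SE 0.07) and BOD1 (-0.20, SE 0.07). After the correction for gene features, NCOA6 (0.18), PAXIP1 (-0.27) and BOD1 (-0.19) kept their calls, and CXXC1 (0.09) and PSIP1 (0.04) did not.

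The other subunits did not pass. WDR82, the SETD1 partner, averaged 151 ± 5.09 CPM in EGFP cells and 143 ± 2.33 CPM in OmoMYC cells (SD, n = 3), and the H3K27 demethylase KDM6A at 28.5 ± 1.58 and 30.7 ± 1.35 CPM. BOD1L1 (193 ± 9.42 and 193 ± 8.47 CPM) and PAGR1 (16.0 ± 2.30 and 15.2 ± 1.10 CPM) were close to equal, and HCFC2 was at 13.0 ± 1.57 and 15.5 ± 1.07 CPM (log2 fold change 0.25, adjusted p = 0.0793). KMT2B and HCFC1 were listed at or near 0 in the engineered table.

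WDR5 also serves in the NSL, ATAC and CHD8 assemblies, and 16 of 17 of these genes were tested, with 5 higher and 2 lower. The acetyltransferase KAT2B (log2 fold change 0.56, SE 0.13) and the reader SGF29 (0.46, SE 0.11), both of ATAC, rose most, and both kept their calls after correction (0.79 and 0.33). MBIP (-0.39, SE 0.11) and DR1 (-0.27, SE 0.09), also of ATAC, fell and lost their calls (0.06 and -0.03).

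Of the H3K4 demethylases, 4 of 5 were tested, with 1 higher and 2 lower. KDM1A, also called LSD1, averaged 1163 ± 21.9 CPM in EGFP cells and 900.4 ± 17.0 CPM in OmoMYC cells (log2 fold change -0.37, SE 0.06, adjusted p = 0.000355), and KDM1B fell as well (-0.26, SE 0.08). KDM5B rose (0.21, SE 0.06). KDM1A (-0.30) and KDM5B (0.25) kept their calls after correction, and KDM1B (-0.08) did not.

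Readers of H3K4 methylation had 5 higher and 1 lower of 13 tested. ING4, a PHD-finger protein of an acetyltransferase complex, had the largest change on any of the lists, from 15.7 ± 0.555 to 29.0 ± 0.302 CPM (log2 fold change 0.88, SE 0.08, adjusted p = 1.19e-05). PHF2, a demethylase with a PHD finger, rose (0.35, SE 0.08) and the remodeler CHD1 fell (-0.35, SE 0.09). After correction ING4 (0.92) and CHD1 (-0.10) were still called and PHF2 (0.08) was not.

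Histone lysine methyltransferases outside COMPASS, most of which act on other lysines, had 3 higher and 4 lower of 17 tested. The H3K9 enzyme SUV39H2 fell from 57.1 ± 6.18 to 37.9 ± 2.61 CPM (log2 fold change -0.59, SE 0.09, adjusted p = 0.000527), and the H3K36 enzyme NSD2 fell (-0.26, SE 0.06). KMT5C, an H4K20 enzyme, rose (0.29, SE 0.11), as did the H3K9 enzyme SETDB1 (0.21, SE 0.07). SUV39H2 (-0.29), NSD2 (-0.24) and SETDB1 (0.13) kept their calls after correction, unlike KMT5C (-0.03).

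Genes that process KMT2A or fuse to it in leukemia had 3 higher and 2 lower of 8 tested, with MLLT3 (log2 fold change 0.53, SE 0.08) and ELL (0.44, SE 0.11) rising most and MLLT10 (-0.29, SE 0.07) and AFF1 (-0.22, SE 0.08) falling most. MLLT3 (0.71), MLLT10 (-0.16) and AFF1 (-0.26) kept their calls after correction, and ELL (0.14) did not. Over all 6 lists, 19 of 68 entries were higher and 14 lower (48.5% called, against 53.0% of all tested genes). The median log2 fold change was 0.04, against 0.01 for all genes and 0.15 for the members. In dTAG47-treated cells 0 of 73 entries were called by edgeR, against 0.159% of all genes. An unadjusted p under 0.05 was found for 3 entries, and for 1053 of all 14470 genes.

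**Figure D5:**
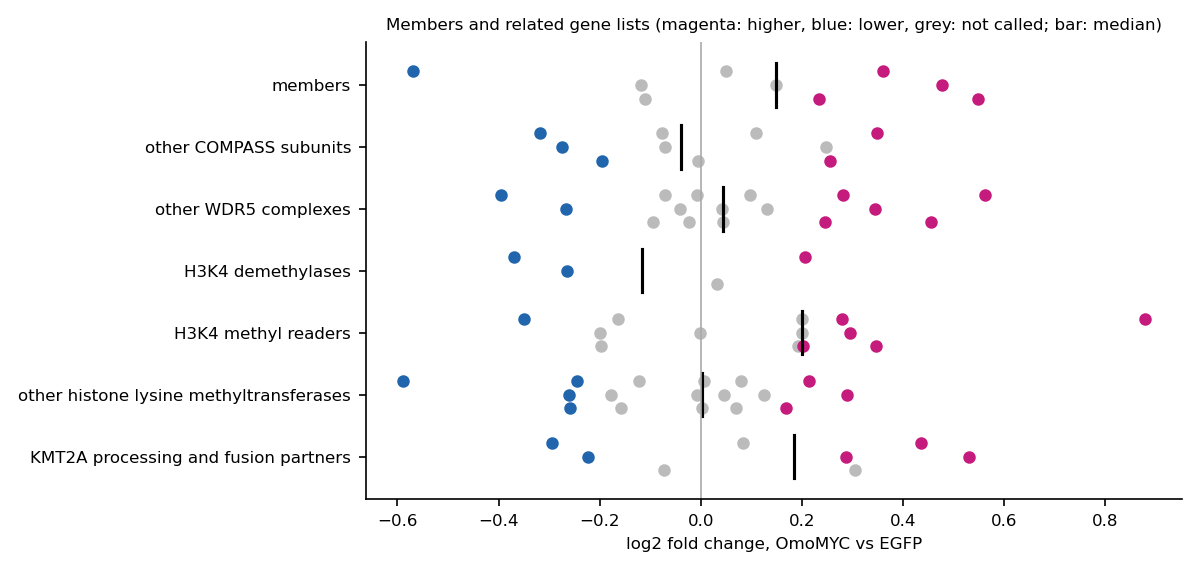
Log2 fold change in OmoMYC against EGFP for the 9 tested members and the genes of 6 related lists (points; magenta higher, blue lower, grey not called), with the median of each list as a bar. Members span -0.57 to 0.55, and ING4 at 0.88 is the rightmost point.

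Across the 14 libraries, with log2 CPM centred in each table, the genes whose pattern was most like that of WDR5 among 13424 were DNAJA3, a mitochondrial chaperone, ACLY, which makes cytosolic acetyl-CoA, and TIAM1, a RAC activator. Their root mean square differences from WDR5 were 0.021, 0.027 and 0.030 on the log2 scale. Of the members, ASH2L (0.079, rank 996) and RBBP5 (0.080, rank 1026) were nearest to WDR5, and KMT2D (0.240, rank 9594) was the farthest. Genes that vary little are near by this measure, whatever their direction. In OmoMYC against EGFP, ASH2L and WDR5 leaned opposite ways (log2 fold changes 0.05 and -0.12, neither called). These values describe likeness over libraries that differ in depth and GC tilt, and they carry no test.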

How the data were processed

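The authors aligned reads from ribosomal RNA-depleted libraries to hg19 with STAR and counted them per gene with featureCounts, per the labels and the study's methods. The deposited values are counts, not normalized. The annotation and strand setting are not given in the sources used here. All 14 columns were used, by gene identifier.

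Counts were analysed in R 4.3.3 with edgeR 4.0.16 (filterByExpr, TMM, robust quasi-likelihood test), separately for each table, with Benjamini-Hochberg adjustment over all tested genes at 0.05. DESeq2 1.42.0, the study's own tool, and limma-voom (limma 3.58.1) were alternatives. Others were other scalings and filters, a replicate block, replicate pairs, leaving out each library, and a correction for transcript length, GC content and gene span. In it, each library's deviation of log2 CPM from the gene's mean was fitted on these features. That robust spline trend (3 degrees of freedom each) was removed from the library. Features came from GENCODE v44 lifted to GRCh37 and covered 13499 of 13803 and 14201 of 14470 tested genes. Corrections for 1 feature alone were added after seeing the data. Only the plain edgeR, DESeq2 and limma-voom fits were tested on simulated counts, which held no GC tilt or replicate split. The corrections and replicate terms were not.

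The members and lists were chosen with earlier results of these data known. Every member was named, every other COMPASS subunit, the 2 largest rises and falls called on each other list, and the 3 genes most like WDR5. Same-numbered libraries correlated at 0.08, -0.07 and 0.29 (engineered) and 0.01 to 0.16 (parental), so numbers were not taken as pairs. Between parental treatments, correlations within replicates 1 and 2 or within 3 and 4 ran from 0.01 to 0.25. Those across these pairs ran from -0.23 to -0.02. The main parental fit held no term for this split, and its SE for KMT2D was 0.051, against 0.026 with a factor for it. Intervals and p-values measure the spread between these cultures. Depth allowed at least 998 counts per library for each tested member.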

Additional observations from a re-analysis of the deposited data

Results flagged for a closer look

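Of 22 groups of 4 libraries (10 members and the core ratio, with DMSO and with dTAG47), 1 held a library far from the others. KMT2A with dTAG47 was at 407 CPM in replicate 1 and at 418 CPM in each of replicates 2 to 4, so the gap was 0.964 of the range, above the 95% critical value of Dixon's test. The whole range of that group is smaller than that of the DMSO libraries, 399 to 439 CPM. Such a rule marks about 1 group in 20 by chance.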

How the results depend on the processing

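DPY30 stayed lower and KMT2D higher, past the threshold, under every alternative run. With the correction for length, GC content and gene span, 2 members were called higher and 2 lower, and RBBP5 (0.069), SETD1A (-0.033) and MEN1 (-0.033) changed sign on the log2 scale. The replicate block together with that correction gave the same counts (2 and 2) and close values (0.069, -0.033 and -0.033). The replicate block alone gave 4 members higher and 1 lower, as without it. With GC content alone corrected, a choice made after seeing the data, 3 members were higher and 2 lower. WDR5 gained a call as lower (-0.33) and KMT2C as higher (0.26), and SETD1B kept its own (0.17). SETD1A (0.045) and MEN1 (-0.040) lost their calls, and RBBP5 (0.041) and MEN1 changed sign. Leaving out single libraries gave 2 to 4 members higher and 1 to 2 lower, 7 to 19 list genes higher and 9 to 15 lower, and log2 fold changes of -0.0020 to 0.062 for ASH2L. Each of these removals leaves fewer samples. List genes called higher fell to 8 without EGFP replicate 2 and to 11 and 7 without OmoMYC replicates 2 and 3, and those called lower to 9 without OmoMYC replicate 1.

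In the parental cells no member was called under any alternative except replicates 3 and 4 alone, where 1 (MEN1) was higher, with 1 list gene higher (PAGR1, 0.16) and 1 lower (CHD1, -0.12). CHD1 was also the 1 list gene called lower with the replicate block (-0.10) and with a factor for replicates 1 and 2 against 3 and 4 (-0.10). Against 17 genes higher and 6 lower among all genes, DESeq2 gave 44 and 15, library size alone 11 higher, the replicate block 306 and 362, the pair factor 374 and 420, replicates 1 and 2 alone 4 and 3, replicates 3 and 4 alone 426 and 470, the full correction 99 and 38, that correction with the replicate block 249 and 78, GC content alone 85 and 35, and leaving out single libraries 4 to 52 and 2 to 32. The parental log2 fold changes that changed sign were all near 0: RBBP5 with library size only (-0.0046), DPY30 (0.028), KMT2A (0.0040), KMT2C (0.0016) and SETD1B (-0.0085) with the full correction and with the block added (0.027, 0.0043, 0.0015 and -0.0086), DPY30 (0.036), SETD1A (-0.0073) and SETD1B (-0.024) with GC content alone, KMT2A (0.028), KMT2C (0.0084) and KMT2D (0.030) with length alone, DPY30 (0.0046) with span alone, and SETD1B with replicates 3 and 4 alone (-0.00052). Without single libraries, WDR5 ranged from -0.040 to 0.0032, RBBP5 from -0.019 to 0.030, KMT2D from -0.052 to 0.011, SETD1A from -0.0036 to 0.075 and SETD1B from -0.012 to 0.054. The cause was not tested.

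In neither table did every library correlate best with the one of its own number. The limits of these data are the 3 libraries per engineered group and the tilt with GC content that separates both groups and replicates. Entries of the engineered table at or near 0, KMT2A among them, or far under their parental level are a further limit.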
